A study of Mus musculus with 10 samples.

Results

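The genes Hes1, Hes5, Hes6, Hes7, Hey1, Hey2, Heyl and Nrarp belong to families whose members include classical transcriptional targets of Notch signalling, and they were searched for peaks of RBPJ, the DNA-binding protein of the pathway, in cultured mouse brain pericytes. They were chosen by name as members of the Hes, Hey and Nrarp families, with earlier results of these data known, and the rule uses no measured value. The 8 genes stood among 21938 protein-coding genes, and 27 of the 11094 RBPJ peaks had their centre in the body or the regulatory domain of 1 of them. The domain reached from 5 kb upstream to 1 kb downstream of the 5′ end of the gene, and was extended on each side as far as the next gene's domain, by at most 1 Mb. Peaks were found at 7 of the 8 genes, beside 46.7% of all protein-coding genes counted in the same way. Heyl had none. The number of peaks was 10 at Hes1, 6 at Nrarp, 4 at Hey1, 3 at Hes7, 2 at Hey2 and 1 each at Hes5 and Hes6.

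The cells were RD1 cells, labelled as brain pericytes, which were grown on collagen I in pericyte medium and given no treatment. Chromatin immunoprecipitation and sequencing (ChIP-seq) was carried out with 2 replicates each for RBPJ, H3K4me1, H3K4me3, total H3 and input, 10 samples in 5 groups. The study sorted its RBPJ sites into proximal and distal ones by the histone data. The lists for RBPJ replicates 1 and 2 held identical positions and were counted as 1 list. The 8 samples of the remaining groups were not used here. No separate cultures are named in the labels, and with start and end positions as the sole values neither depth, peak height nor pericyte markers could be examined. All results below are therefore descriptions of 1 list, with no spread between replicates and no test.

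RBPJ binds DNA whether or not Notch is active. Without a signal it recruits corepressors, and when Notch is cleaved its intracellular domain enters the nucleus, joins RBPJ and recruits Mastermind-like coactivators. Hes and Hey proteins are basic helix-loop-helix repressors, several of them induced in this way, whereas Hes6 is known less as a Notch target than as an antagonist of Hes1. Nrarp, a small ankyrin repeat protein, binds the Notch intracellular domain and RBPJ and dampens the signal. In mural cells, Notch3 and its Hes and Hey targets are known above all from arterial smooth muscle.

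RBPJ recognises TGGGAA, most strongly in the form GTGGGAA, and some Hes promoters are known for a pair of such sites that face each other. The sequences below show where these letters stood, in the reading direction of the gene and in the build GRCm38.p6, with TGGGAA and its reverse complement TTCCCA in capitals. The RefSeq promoter table, with 250 bases before and 50 after each start, matched 5 of the 8 genes (Hes5, Hes6, Hes7, Hey2 and Nrarp). The first 4 sequences come from it: they contrast a promoter with 2 matches and no peak (Hes5), one with 2 matches inside a peak (Hey2), one overlapped by a peak with no match (Nrarp), and the only match in the Hes7 window, shown with 30 bases because it lies in an annotated untranslated region.
Hes5 promoter, chr4:154960673-154960922, plus strand: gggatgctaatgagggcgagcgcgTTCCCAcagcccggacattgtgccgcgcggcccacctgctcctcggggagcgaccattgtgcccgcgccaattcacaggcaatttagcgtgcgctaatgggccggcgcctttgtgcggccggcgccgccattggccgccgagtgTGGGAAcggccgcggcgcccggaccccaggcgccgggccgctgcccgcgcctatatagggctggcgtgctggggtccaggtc
Hey2 promoter, chr10:30842781-30843033, minus strand: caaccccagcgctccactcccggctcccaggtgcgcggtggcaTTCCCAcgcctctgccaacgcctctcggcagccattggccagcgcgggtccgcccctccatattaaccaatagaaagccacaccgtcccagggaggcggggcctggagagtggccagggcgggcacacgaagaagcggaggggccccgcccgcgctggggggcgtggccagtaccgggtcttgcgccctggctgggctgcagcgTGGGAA
Nrarp promoter, chr2:25180508-25180757, plus strand: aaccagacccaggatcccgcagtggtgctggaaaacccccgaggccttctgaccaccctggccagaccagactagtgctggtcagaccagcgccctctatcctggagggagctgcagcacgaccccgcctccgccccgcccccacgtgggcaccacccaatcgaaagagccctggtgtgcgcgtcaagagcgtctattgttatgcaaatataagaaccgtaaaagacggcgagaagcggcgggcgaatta
Hes7 promoter match, chr11:69120261-69120290, plus strand: tcctcccctcacTTCCCAcatttggggcta

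The next 5 sequences are taken from peaks far from a start. They show the sole peak of Hes5, the central 200 bases of the sole peak of Hes6, the Hey2 peak that was unusually dense in the motif, and the central 200 bases of the 2 narrowest Hes1 peaks.
Hes5 distant peak, chr4:154946406-154946621, plus strand: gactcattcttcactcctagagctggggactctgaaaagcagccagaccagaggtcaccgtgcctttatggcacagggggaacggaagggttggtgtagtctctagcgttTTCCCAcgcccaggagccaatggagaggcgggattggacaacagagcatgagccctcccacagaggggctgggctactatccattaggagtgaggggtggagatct
Hes6 distant peak, chr1:91436499-91436698, minus strand: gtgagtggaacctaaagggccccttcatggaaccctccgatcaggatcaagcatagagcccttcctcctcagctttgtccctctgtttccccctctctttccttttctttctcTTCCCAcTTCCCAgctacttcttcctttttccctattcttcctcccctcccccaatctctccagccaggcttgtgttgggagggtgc
Hey2 distant peak, chr10:30980176-30980475, minus strand: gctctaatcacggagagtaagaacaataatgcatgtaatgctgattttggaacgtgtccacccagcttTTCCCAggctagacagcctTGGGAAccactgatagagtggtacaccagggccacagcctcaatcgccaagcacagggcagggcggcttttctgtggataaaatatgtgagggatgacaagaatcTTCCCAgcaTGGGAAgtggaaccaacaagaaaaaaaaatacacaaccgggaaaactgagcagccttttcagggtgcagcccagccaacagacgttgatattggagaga
Hes1 distant peak, narrowest, chr16:29894532-29894731, plus strand: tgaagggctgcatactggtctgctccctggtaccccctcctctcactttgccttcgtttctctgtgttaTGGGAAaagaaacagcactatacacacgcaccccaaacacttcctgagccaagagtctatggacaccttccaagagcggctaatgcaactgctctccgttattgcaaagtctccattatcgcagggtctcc
Hes1 distant peak, next narrowest, chr16:29915388-29915587, plus strand: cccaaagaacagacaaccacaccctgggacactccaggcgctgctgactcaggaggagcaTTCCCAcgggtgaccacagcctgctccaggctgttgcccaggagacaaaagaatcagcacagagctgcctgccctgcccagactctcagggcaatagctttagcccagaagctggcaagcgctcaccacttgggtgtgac

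The last sequence holds a pair of facing sites upstream of Nrarp, with the hexamers of the pair in capitals.
Nrarp pair, chr2:25177768-25177887, plus strand: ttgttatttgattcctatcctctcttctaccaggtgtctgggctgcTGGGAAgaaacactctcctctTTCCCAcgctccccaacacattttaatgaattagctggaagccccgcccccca

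The peaks were first placed relative to the start of the protein-coding transcript, which all 8 genes have once. This start was the 5′ end of the gene except at Hes1 and Hes6, where it lay 956 and 816 bp further downstream. A peak covered the start of Hes1, Hes7, Hey1, Hey2 and Nrarp, which is 5 of 8 genes, beside 23.4% of all protein-coding genes with their 5′ end inside a peak. The centre lay within 1 kb of the start in 3 of the 8 genes (Hey1, Hey2 and Nrarp), beside 24.9% of all genes. Of the 27 peaks, 3 were centred within 1 kb of the start, 4 at over 1 to 5 kb, 8 at over 5 to 50 kb and 12 farther away. Upstream of the 5′ end lay 21 of the 27 peaks, or 77.8%, close to the 75.9% of the searched length that is upstream (1413 of 1861 kb).

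**Figure D1:**
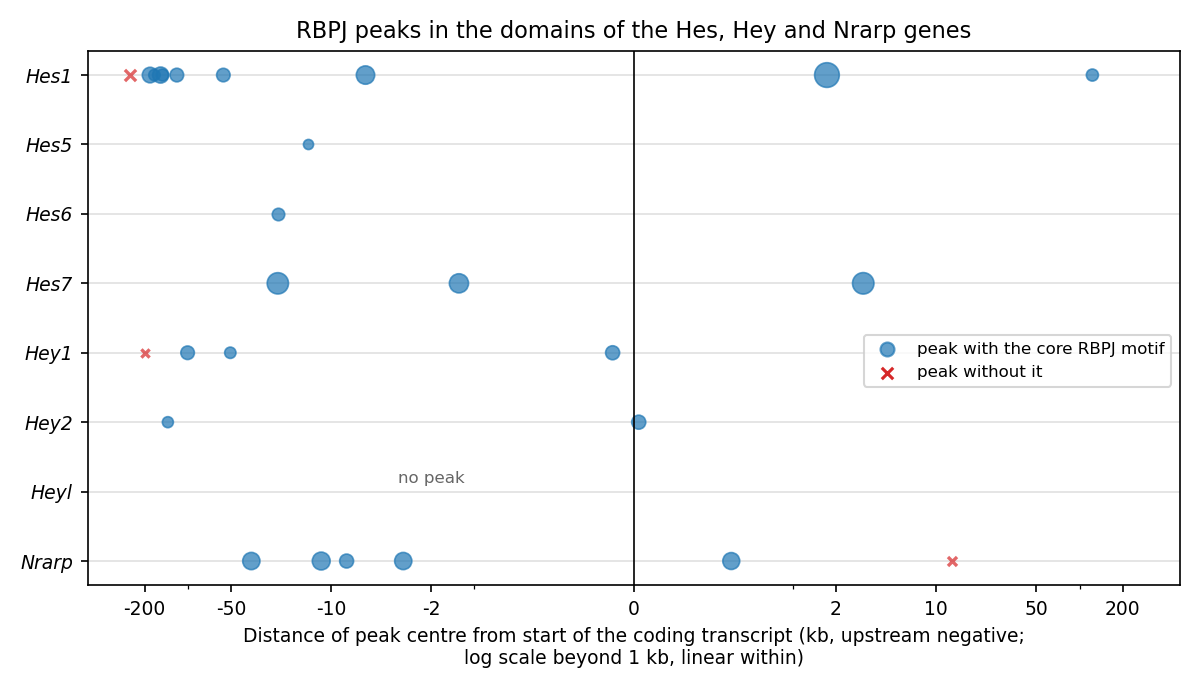
RBPJ peaks in the domains of the 8 genes. Each symbol is the centre of 1 peak at its distance in kb from the start of the coding transcript (log scale beyond 1 kb), circles hold TGGGAA, crosses do not, and a larger symbol is a wider peak; 21 of the 27 peaks lie upstream, as does 75.9% of the searched length, and the 3 crosses are at Hes1, Hey1 and Nrarp.

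Hes1, the repressor that keeps many progenitor cells undifferentiated, lies at chr16:30064384-30067796 on the plus strand (ENSMUSG00000022528.8) and had 10 peaks in a domain of 686 kb. As many or more were found at 42 genes, or 0.191% of all, and in 0.901% of the 1775 genes with a domain within 1.5 times that length. The start was covered by a peak of 7702 bp that ran from 2122 bp upstream to 5579 bp downstream, past the end of the gene. It was the widest of the 27, and 0.775% of all peaks were as wide. It held 9 copies of TGGGAA, 5 of them as GTGGGAA. A pair of sites facing each other, TGGGAA and TTCACA with 16 bp between them, was centred 66 bp upstream of the coding start. A second peak of 2356 bp stood 5749 bp upstream with 2 copies, neither as GTGGGAA.

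The other 8 peaks of Hes1 lay outside protein-coding genes and far away. From the most distant inwards, 7 upstream peaks were centred at 251, 183, 171, 155, 150, 119 and 56.4 kb. The remaining peak was 123 kb downstream. They formed a loose cluster between 119 and 183 kb upstream that holds 5 of them, with 3854 bp between the closest neighbours. All but the outermost upstream peak, of 836 bp, held TGGGAA. In 4 of them, at 155, 150, 119 and 56.4 kb, it was part of a GTGGGAA. The peak 183 kb upstream held 4 copies of TGGGAA and a pair with 18 bp between TGAGAA and TTCCCA. Long noncoding RNAs were annotated here too: the peak at 119 kb covered the start of Gm26569 and the peak at 56.4 kb that of 4632428C04Rik. The outermost peak was nearer to Opa1, a GTPase of mitochondrial fusion, and the downstream one to Cpn2, a carboxypeptidase N subunit, so that 8 of the 10 peaks had Hes1 as the nearest gene.

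Hes7, an oscillating repressor of the segmentation clock, lies at chr11:69120404-69124055 on the plus strand (ENSMUSG00000023781.2). Its 3 peaks fell in a domain of 27.8 kb, which is 108 peaks per Mb of domain, beside 4.19 per Mb over the genome and 7.66 over chromosome 11. In so short a domain, few peaks give a high density. As many peaks were found at 0.667% of the 3748 genes with similar domains. The first ran from 2676 bp upstream to 114 bp downstream of the start and was 2791 bp wide. It held 7 copies of TGGGAA, 4 as GTGGGAA, and a pair 1293 bp upstream with 20 bp between TGAGAA and TTCCCA. The second, of 4395 bp, ran from 899 to 5293 bp downstream, held 7 copies and covered the start of 9130213A22Rik, the next gene. Only 784 bp separated these peaks, although the study's methods merge peaks within 2 kb. The third was 4274 bp wide and covered the start of Per1, a repressor of the circadian clock, 23.5 kb upstream of Hes7. It held 1 copy of TGGGAA and 5 of CACGTG, the E-box. Thus 1 of the 3 peaks was nearer to Hes7 than to another gene.

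Hes5 and Hes6 had 1 peak each, and in both cases it was distant. Hes5, a repressor of neural progenitors, lies at chr4:154960923-154962371 on the plus strand (ENSMUSG00000048001.7), and its peak of 216 bp stood 14.4 kb upstream, outside protein-coding genes. As many as 94.6% of all peaks were at least as wide. The single TGGGAA in it was a GTGGGAA and lay in the central 200 bp. The Hes5 promoter held GTGGGAA 2 times, at positions -83 to -77 from the RefSeq start and, on the other strand, at -226 to -220, but no peak overlapped it. The domain of Hes5 spanned 28.8 kb, and 33.3% of the 3849 genes with similar domains had at least 1 peak.

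Hes6, the family member that counteracts Hes1, lies at chr1:91411483-91414038 on the minus strand (ENSMUSG00000067071.8). Its peak of 501 bp was 23.4 kb upstream of the coding start and fell in an intron of Per2, another clock repressor, whose 5′ end was 22726 bp away, against 22560 bp to that of Hes6. It held 2 copies of TGGGAA, both in the central 200 bp, 1 of them as GTGGGAA, in a stretch rich in pyrimidines. Neither of the 2 Hes6 promoter windows in the RefSeq table held TGGGAA or met a peak. Among the 5533 genes with similar domains, 37.7% had a peak, and a peak outside the domain lay closer to Hes6, at 15.4 kb from the 5′ end of the gene.

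Hey1 and Hey2, which act in arterial and cardiac development, each had a peak of similar width over the start. Hey1 lies at chr3:8663359-8667256 on the minus strand (ENSMUSG00000040289.8), and its start was covered by a peak of 802 bp, from 533 bp upstream to 268 bp downstream. At Hey2, at chr10:30832359-30842801 on the minus strand (ENSMUSG00000019789.9), the peak was 806 bp wide and ran from 371 bp upstream to 434 bp downstream. The centres were 132 bp upstream and 32 bp downstream of the start. Both peaks held GTGGGAA 2 times, at 173 bp upstream and 238 bp downstream in Hey1 and at 187 bp upstream and 17 bp downstream in Hey2. A further TGGGAA stood 221 bp downstream of the Hey1 start. No pair of facing sites was found in either peak.

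Away from the start, Hey1 had 3 peaks, all upstream, of which the outer 2 are described here. The nearer of these was 703 bp wide and 100176 bp away, with 2 copies of TGGGAA. The farther, of 244 bp, had no copy and lay 199 kb away in an intron of Mrps28, a gene for a mitochondrial ribosomal protein whose start was nearer. Hey1 was thus left with 3 of 4 peaks for which it was the nearest gene. As many as 4 peaks were found at 12.3% of the 2528 genes with domains of similar length.

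Hey2 had 1 more peak, 138 kb upstream, in a domain of 500 kb. It was 306 bp wide and held 4 copies of TGGGAA, or 13.1 per kb, a density that 0.27% of all peaks reached. As printed above, the copies alternated between the strands and were separated by 13, 99 and 3 bases, and none was a GTGGGAA. The 2 copies that faced each other were those 99 bases apart, beyond the spacing counted as a pair below. In the set of 2239 genes with similar domains, 38.5% had at least 2 peaks.

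Heyl, a Hey family gene known in vascular smooth muscle, lies at chr4:123233556-123249875 on the plus strand (ENSMUSG00000032744.4) and had no peak in its domain of 54.8 kb. The nearest base of a peak was 216387 bp from the start, and 78.6% of all genes had a peak at least that near. A peak was found at 37.8% of the 5534 genes with similar domains.

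Nrarp, the feedback inhibitor, lies at chr2:25180758-25183339 on the plus strand (ENSMUSG00000078202.3) and had 6 peaks in 95.7 kb. This was reached by 0.453% of the 5737 genes with similar domains and by 1.3% of all genes. Its peaks formed a series on the upstream side: they were centred 35985, 11710, 7787 and 3135 bp before the start and were 1834, 2114, 783 and 1810 bp wide. A peak of 1701 bp covered the start and ran from 237 bp upstream to 1463 bp downstream. The last was 353 bp wide and 12866 bp downstream, in an untranslated region of Tor4a, a torsin family gene. The start-covering peak held 2 copies of TGGGAA, both in the transcribed region, at 929 and 1405 bp, and the first was a GTGGGAA. The 4 upstream peaks held 2, 5, 2 and 4 copies in the order given, and the Tor4a peak none.

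The pair upstream of Nrarp was the only one among the 27 peaks with TGGGAA facing TTCCCA. It was centred 2931 bp before the start with 15 bp between the hexamers. The outermost of the upstream peaks covered the start of Gm13387, a long noncoding RNA. Nrarp was the nearest gene for 5 of its 6 peaks.

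**Figure D2:**
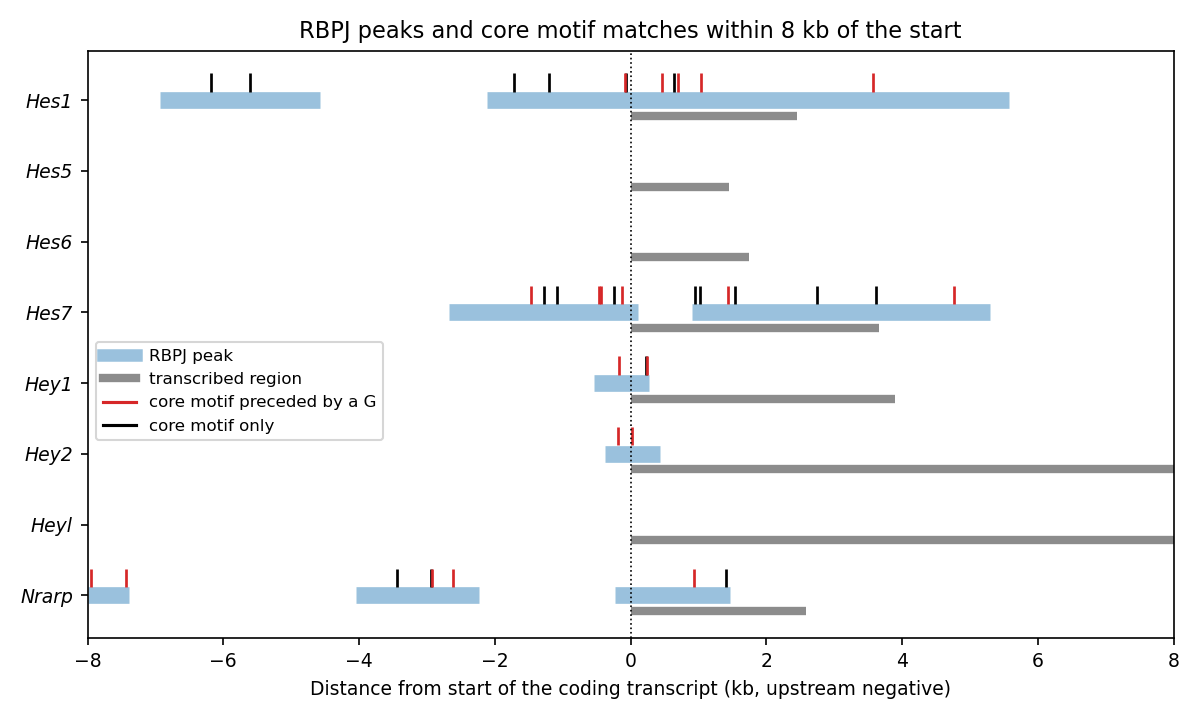
Peaks within 8 kb of the start of the coding transcript. Blue bars are RBPJ peaks, grey bars the transcribed region, red lines copies of GTGGGAA and black lines other copies of TGGGAA inside peaks, by distance in kb; bars cross the start in Hes1, Hes7, Hey1, Hey2 and Nrarp, and no peak is drawn for Hes5, Hes6 and Heyl.

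The peaks that covered a start ranged in width from 802 bp at Hey1 and 806 bp at Hey2 through 1701 bp at Nrarp and 2791 bp at Hes7 to 7702 bp at Hes1. The 22 other peaks ran from 216 to 4395 bp. The median over all 27 was 802 bp (quartiles 423 and 1822 bp), beside 690 bp (quartiles 382 and 1419 bp) over all peaks, and these distributions overlapped widely.

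**Figure D3:**
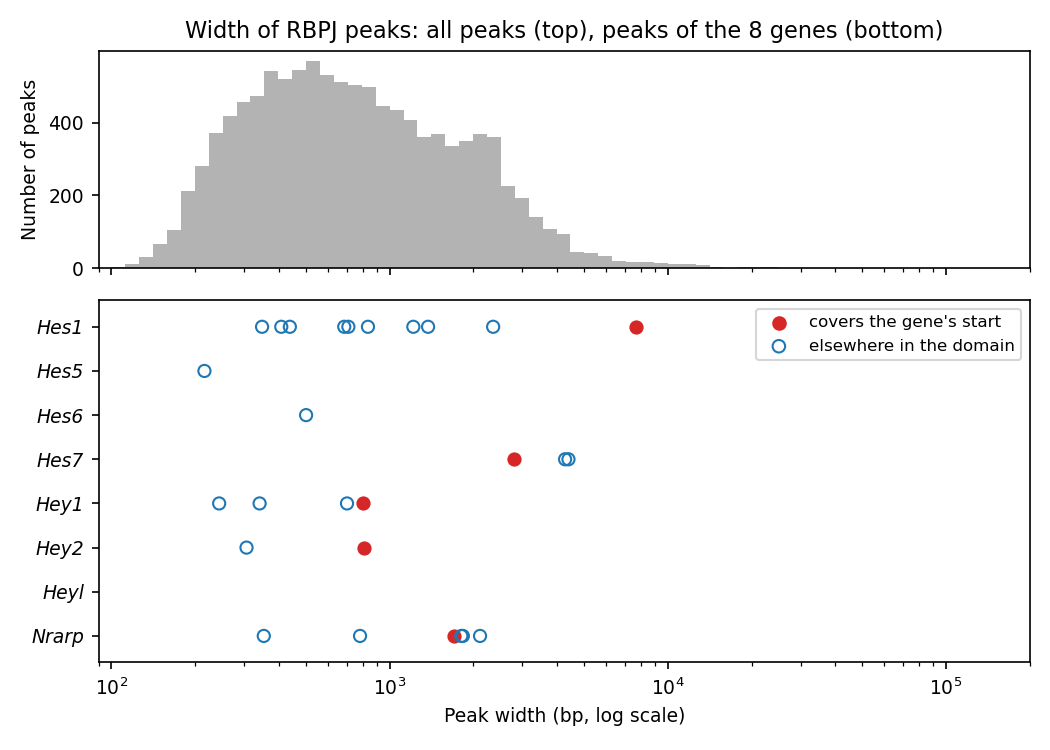
Width of the peaks in bp on a log scale, as a histogram of all 11094 peaks (top) and as single peaks of the 8 genes (bottom). Filled red circles cover the start of the gene and open blue ones do not; the Hes1 start peak of 7702 bp is the widest of the 27 and the Hes5 peak of 216 bp the narrowest.

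Motif content was then compared with that of all peaks. TGGGAA, searched on both strands over the whole peak, was present in 24 of the 27 peaks, or 88.9%, beside 64.9% of all peaks. The exact (Clopper-Pearson) 95% interval ran from 70.8 to 97.6%. It covers counting error only and treats the peaks as independent, although 10 are at Hes1 and 6 at Nrarp. GTGGGAA, which contains TGGGAA, was present in 17, or 63.0%, beside 29.3% of all peaks. The longer form stood out by density as well, with 0.774 copies per kb in the 27 peaks and 0.331 in all peaks, whereas TGGGAA reached 1.7 and 1.25 copies per kb. In the central 200 bp, TGGGAA was present in 8 of the 27 peaks, or 29.6%, close to the 25.8% of all peaks. Peaks were mostly wider than this window, and their centres need not be the bound base.

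The 5 peaks over a start all held GTGGGAA, beside 26.5% of the 4547 peaks that covered the 5′ end of any gene. For TGGGAA that share was 59.8%, and it was 68.5% for the 6547 peaks elsewhere, while the 22 other peaks of the 8 genes, of which those over Per1 and 9130213A22Rik cover a neighbour's 5′ end, held it in 19. Width moves with these shares: among peaks of at least 500 bp, 18 of 19 at the 8 genes and 73.1% of all held TGGGAA, and among narrower ones 6 of 8 and 50.6%. GTGGGAA moved with width too, and was present in 53.6% of all peaks over 2 kb and in 20.5% of those under 500 bp. The 5 peaks over a start had a median width of 1701 bp, beside 905 bp for the 4547. The part of width in these differences was not tested beyond these splits.

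The 3 peaks without TGGGAA were the outermost peak of Hes1, the Mrps28 peak of Hey1 and the Tor4a peak of Nrarp. Each was nearer to another gene than to the member whose domain held it. When only the 21 peaks whose nearest 5′ end was that of a Hes, Hey or Nrarp gene were kept, a choice made after seeing the data, all 21 held TGGGAA and 16 held GTGGGAA, beside 64.9% and 29.3% of all peaks. The Hes6 peak is among them by the 5′ end of Hes6, 22560 bp away. The 5′ end of Per2 was 22726 bp away, and the Hes6 coding start 23376 bp. Of the 6 nearer to another gene, 3 held TGGGAA. Regulatory domains overlap, and 21 of the 27 peaks lay in the domain of another gene too. Besides the neighbours named above, these were Tnfrsf14 for the Hes5 peak, Hddc2 for the distant Hey2 peak, Noxa1 for 3 upstream peaks of Nrarp and Aloxe3, together with 9130213A22Rik, for the downstream peak of Hes7.

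Head-to-head pairs were taken as TGNGAA followed by TTCNCA on the same strand with 11 to 21 bp in between. They were present in 5 of the 27 peaks, or 18.5%, beside 4.4% of all peaks. Among all peaks, pairs were present in 8.16% of those over 2 kb and in 4.6% of those under 500 bp. The part of width in this difference was not tested. The pairs at Hes1, Hes7 and Nrarp had gaps of 18 bp in the distant Hes1 peak, 16 bp at the Hes1 start, 20 bp at Hes7 and 15 bp at Nrarp. Gaps of 15 to 17 bp, the spacing known for paired RBPJ sites, were found at the Hes1 start and at Nrarp, which is 2 of 5 pairs, beside 125 of the 509 pairs in all peaks.

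In promoter windows, where no peak is needed, TGGGAA was present in 3 of the 6 windows of the 5 matched genes (those of Hes5, Hes7 and Hey2, and neither of Hes6), beside 25.6% of 32851 RefSeq promoters. All 3 held GTGGGAA, beside 6.38%. None of the 6 windows held a pair, beside 0.539% of all promoters. The Hes7 match stood at positions -180 to -174 from the RefSeq start, and the Hey2 matches at -207 to -201 and at -4 to 3. Hes7, Hey2 and Nrarp had a peak over the window, and Hes5 and Hes6 did not. Within the window, motif and peak thus came apart at Hes5 in one direction and at Nrarp in the other. The peak over the Nrarp window did hold TGGGAA, at 929 and 1405 bp downstream of the start, beyond the window. Hes5 lies on chromosome 4, which held few peaks in all.

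Other motifs were counted on both strands in whole peaks. TGAGAA, a weaker relative of the RBPJ site, was found in 12 of the 27 peaks beside 45.3% of all peaks. CACGTG, the E-box, was found in 6 beside 17.8%, and CACGAG, the N-box to which Hes repressors bind, in 7 beside 21.8%. Over all 27 peaks these shares were 44.4%, 22.2% and 25.9%, close to the background. Of the 5 peaks over a start, however, 3 held CACGTG, beside 24.2% of all peaks over a 5′ end, and 4 held CACGAG, beside 1365 of those 4547, or 30%. Both motifs moved with width, and were present in 37.4% and 45.1% of all peaks over 2 kb and in 6.76% and 7.96% of those under 500 bp. TGANTCA, the site of AP-1 (Fos and Jun), was found in 10 of 27, or 37.0%, beside 30.7%. It was absent from the 5 peaks over a start, beside 17.7% of all peaks over a 5′ end, and present in 10 of the other 22, beside 39.7%. The Hes1 start peak alone held 6 copies of CACGAG and 3 of CACGTG.

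The 8 genes lay in regions of different peak density. Within 1 Mb of the 5′ end, the number of peaks was 33 for Hes7, 27 for Nrarp, 26 for Hes6, 20 for Hes1, 11 for Hey1, 6 for Hey2, 4 for Hes5 and 1 for Heyl, beside a median of 11 and quartiles of 5 and 21 for all genes. Counts in the domains depend on their length, which was 686 kb for Hes1, 413 kb for Hey1 and 54.5 kb for Hes6. Per Mb of domain the order was Hes7 (108), Nrarp (62.7), Hes5 (34.7), Hes6 (18.3), Hes1 (14.6), Hey1 (9.7), Hey2 (4) and Heyl (0), and those of Hes5 and Hes6 rest on 1 peak each.

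**Figure D4:**
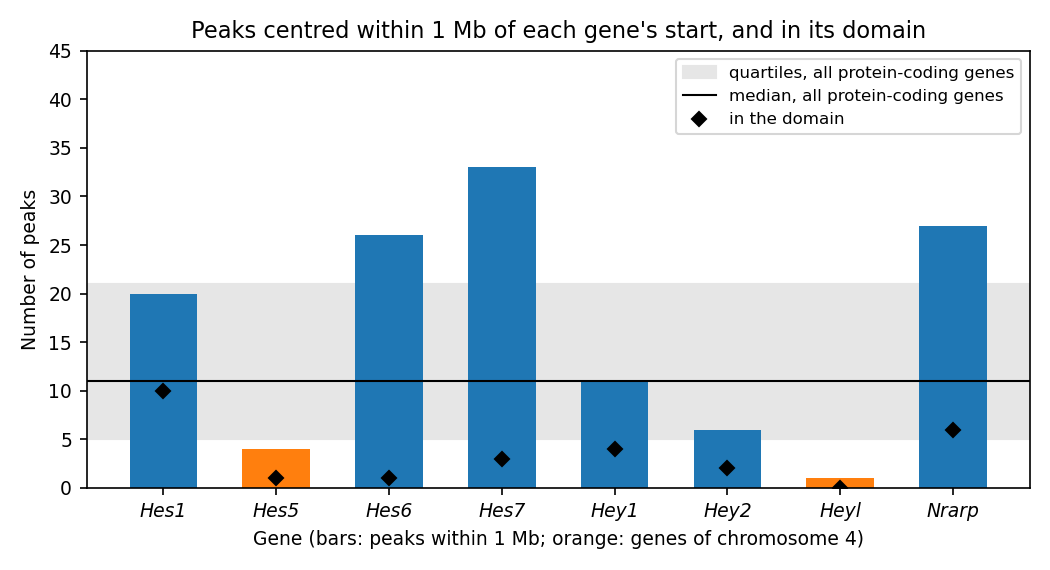
Number of peaks centred within 1 Mb of the 5′ end of each gene (bars, orange for chromosome 4) and in its domain (diamonds). The grey band and the line give the quartiles and the median of 11 peaks over all protein-coding genes; Hes5 and Heyl, with 4 and 1, fall below the band, and Hes6, Hes7 and Nrarp rise above it.

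Hes5 and Heyl both lie on chromosome 4, which held few peaks in all. It had 158 peaks, or 1.04 per Mb, and 14.7% of its genes had a peak and 3.77% had their 5′ end inside one. The 17 autosomes other than 4 and 7 had 3.27 to 7.66 peaks per Mb, and 48.8 to 66.0% and 23.1 to 33.4% of their genes. The peak of Hes5 had no other peak for 920224 bp on the side away from the gene, and a gene of chromosome 4 had a median of 2 peaks within 1 Mb. The lack of a peak at Heyl and over the start of Hes5 cannot be told apart from this shortage on the chromosome, the cause of which was not tested.

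**Figure D5:**
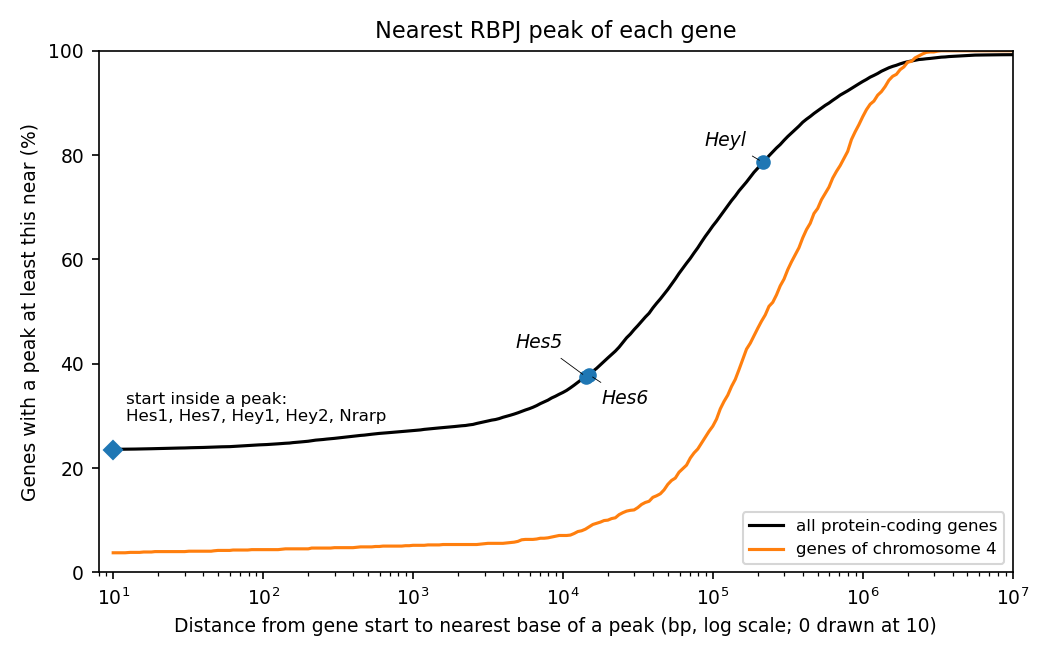
Share of genes in percent with a peak at least as near as the distance on the x axis (bp, log scale, from the 5′ end of the gene to the nearest base of a peak; genes inside a peak are drawn at 10 bp), for all protein-coding genes (black) and those of chromosome 4 (orange). The diamond marks the 5 genes whose start lies in a peak, and the circles mark Hes5, Hes6 and Heyl at 14302, 14956 and 216387 bp.

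Related genes were counted for comparison. Of 5 other repressors related to Hes and Hey, 3 had a peak: Bhlhe40, a clock-linked repressor, had 8, with 1 centred 53 bp from its 5′ end, Bhlhe41 had 1 at 580 bp, and Helt had 1 with its nearest base 83.3 kb away. Hes2 and Hes3 had none and are on chromosome 4 as well. Of 30 other genes of the Notch pathway, 23 had a peak and 14 had their 5′ end inside one. Those without were the divergent ligand Dll3, the ubiquitin ligases Dtx1 and Itch, the fringe glycosyltransferases Mfng and Rfng, the Numb relative Numbl and the gamma-secretase subunit Psenen. Of these, Dll3, Numbl and Psenen lie on chromosome 7, which was as poor in peaks as chromosome 4, with 1.03 per Mb and a peak at 10.7% of its genes. Of 10 other genes known as Notch targets in some tissue, 8 had a peak and 4 had it over the 5′ end, and Dtx1 and Gata2 had none. The pathway and target lists share Notch3, Jag1 and Dtx1. Counts depend on domain length, and its median was 179, 123 and 219 kb for the 3 lists in the order given, beside 75.3 kb for the Hes, Hey and Nrarp genes. The difference between these lists and the Hes, Hey and Nrarp genes, with 7 of 8 and 5 of 8, was not tested.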

How the data were processed

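ChIP-seq samples of RD1 cells were grouped by their titles. As the study's methods describe, bowtie was used by the authors for alignment to GRCm38, with reads of more than 3 positions dropped and duplicates removed. Calls of Macs2 and Peakranger from both replicates were joined where they lay within 2 kb, and a region was retained when 3 or more calls overlapped and it was not blacklisted. The deposited values are the first and last base of each region (bp) in a consensus list, without a score. Joining widens peaks, so that a centre need not be the bound site. The members and the gene lists were chosen with earlier results of these data known.

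Positions were read as counted from 1, and 0 peaks ran past a chromosome end of GRCm38.p6. Domains were built with GREAT's basal plus extension rule from GENCODE M21 protein-coding genes, and a peak was assigned by its centre. Similar domains are those within 1.5 times a gene's domain length. Motifs were counted on both strands of the reference genome. Members and the peaks in their domains are described, except 1 peak that is counted but not reported here singly, and all genes of the list of related repressors, the genes without a peak of the other lists and genes sharing a peak are named. Domain calls, motifs and pairs were tested on simulated data. Alternatives covered domain size, distance limit, width, motif and spacing. Scripts ran under Python 3.11.15 with scipy 1.17.1 (intervals), pandas 2.3.3, numpy 2.4.6 and matplotlib 3.10.9.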

Additional observations from a re-analysis of the deposited data

How the results depend on the processing

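The 7 genes with a peak became 5, without Hes5 and Hes6, when the search kept the gene body and 5 kb upstream to 1 kb downstream, with no extension. They became 6 with peaks of at least 500 bp, without Hes5. The 27 peaks became 8 in that smaller region, gene bodies included, with a median width of 2083 bp. They became 17 with an extension of at most 100 kb, with a median width of 1701 bp in place of 802 bp. Genes with a peak within 1 kb rose from 3 to 5 with a limit of 5 kb or with distances taken to the nearest base. The share of peaks with the motif was 29.6% in the central 200 bp, 63.0% for GTGGGAA and 100% among peaks nearest to a Hes, Hey or Nrarp gene, an alternative chosen after seeing the data. Of the 5 pairs, 2 had a gap of 15 to 17 bp and 1 was TGGGAA facing TTCCCA. Leaving out either RBPJ replicate gave the same 7 genes, 27 peaks, 3 near starts, 88.9%, 802 bp and 5 pairs, because the lists are identical. No paired analysis was possible because both replicates of RBPJ share 1 list and no result compares groups. Without peak heights or depth, a site near the calling threshold cannot be weighed.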
